A study of Mus musculus with 4 samples.

Results

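Cells in which transcripts of T, Sox2 and Nkx1-2 were detected together were examined in one culture of mouse caudal epiblast-like cells, named Epi-CE in the labels. A cell belonged to the group when it held at least 1 unique molecular identifier (UMI, a count of 1 captured transcript molecule) of each of the 3 genes. Cells with 4 or more UMIs summed over Foxa2, Foxj1, Chrd, Shh and Noto, genes of the node and notochord, were left out, as were cells with 3 or more UMIs summed over Tbx6, Msgn1 and Aldh1a2, genes of paraxial mesoderm. Of 2386 Epi-CE barcodes marked TRUE in the authors' cell table, 552 met this rule, which is 23.1% (exact 95% binomial interval 21.5 to 24.9), out of 10579 barcodes in the series. The comparison group was made of the 911 Epi-CE cells that met the same limits and held T and Nkx1-2 but no Sox2 UMI. The 552 cells are called T/Sox2/Nkx1-2 cells here, and the 911 are called Sox2-0 cells. Both groups were selected on measured counts, so their levels of T, Sox2, Nkx1-2 and the 8 limit genes are given as description only.

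Neuromesodermal progenitors (NMPs) lie in the caudal epiblast of the embryo and give rise to spinal cord and to paraxial mesoderm as the body axis elongates. They are recognised by joint expression of T (Brachyury), a T-box factor of the primitive streak and mesoderm, and Sox2, an HMG-box factor of pluripotent and neural cells. Nkx1-2 is a homeobox gene of the caudal epiblast that is silent in most differentiated tissue. WNT and FGF signals maintain this region, and the Cdx and Hox genes that follow them give cells their position along the axis.

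Epi-CE cells came from E14Tg2a cells kept as epiblast stem cells on fibronectin in N2B27 medium with 12 ng/ml FGF2 and 25 ng/ml activin A. They spent a day in that medium, a day with 20 ng/ml FGF2 and no activin, and a day with FGF2 and 3 μM CHIR99021, an inhibitor of GSK3 that switches on WNT signalling. The same rule was applied to the other 3 libraries of the series. ES-NMP cells were embryonic stem cells held for 2 days in N2B27 and then given 3 μM CHIR99021, 72 h in all. Epi-CE-T cells were a Bra:GFP reporter line taken through the Epi-CE protocol and sorted for GFP after 72 h, and Epi-NMP cells were Epi-CE cells replated for 2 days in 20 ng/ml FGF2 and 3 μM CHIR99021. All 4 carry the strain label E14Tg2a, and 8700 cells were loaded for each.

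Each population was sequenced as 1 library, so no test across samples was possible, no p-value was computed, and all intervals cover counting error only. Barcodes marked TRUE held at least 8011 UMIs and 2501 detected genes, and median depth per library ran from 19189 to 22613.5 UMIs. The T/Sox2/Nkx1-2 cells had a median of 24157 UMIs and the Sox2-0 cells 22388, and the groups summed to 14432645 and 22182268 UMIs. Across libraries, 57 barcode sequences occurred in 2 libraries, and 6 T/Sox2/Nkx1-2 cells and 12 Sox2-0 cells carried such a sequence. Hprt, the purine salvage gene on chromosome X that E14Tg2a cells are known to lack in functional form, stood at 0.831 CPM (counts per 1e+06 UMIs of the group) in the T/Sox2/Nkx1-2 cells and 0.603 CPM in the Epi-NMP cells of the same rule. It stood at 201 CPM in those of ES-NMP and 193 CPM in those of Epi-CE-T, which goes against the shared strain label. Cell line and protocol therefore cannot be told apart where ES-NMP or Epi-CE-T is set against Epi-CE, while Epi-NMP shares the low Hprt level.

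T was detected in 88.6% of Epi-CE cells, Nkx1-2 in 79.5% and Sox2 in 36.6% (34.7 to 38.6), so Sox2 was the gene that set the size of the group. T/Sox2/Nkx1-2 cells held a median of 2 Sox2 UMIs, and 263 of the 552, or 47.6%, held exactly 1. A further 137 held 2, 58 held 3, 51 held 4 and 25 held 5, and the highest count was 10. T ran from 1 to 63 UMIs with a median of 9 and Nkx1-2 from 1 to 31 with a median of 6, against medians of 9 and 4 in Sox2-0 cells. In CPM of the summed cells, T was at 426 in the T/Sox2/Nkx1-2 cells and 447 in the Sox2-0 cells, and Nkx1-2 at 252 and 221. Sox2, a single-exon gene on GRCm38 chromosome 3 from 34650405 to 34652461, was at 80.8 CPM (76.2 to 85.6), compared with 31.4 CPM over all Epi-CE cells.

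Free RNA in droplets can leave UMIs in cells that do not express a gene. In the 27 Epi-CE cells with at least 10 UMIs of the mesoderm genes, Sox2 was detected in 5, or 18.5% (6.30 to 38.1), at a median depth of 26096 UMIs, and its level was 10.9 CPM (4.71 to 21.5). In the 56 cells with at least 10 UMIs of the node genes, it was detected in 22, or 39.3% (26.5 to 53.2), at a median depth of 23538 UMIs and a level of 38.7 CPM (29.1 to 50.3). The share of 36.6% over all Epi-CE cells lay inside both of these wide intervals, so at this depth a cell with a single Sox2 UMI cannot be read as Sox2-expressing with certainty. Without the 2 limits the rule would have taken 651 cells. Of these, 87 were over the node limit, 13 over the mesoderm limit, with 1 cell in both numbers. Just inside the node limit stood 44 cells with a sum of 3 and just outside it 18 with a sum of 4, and at the mesoderm limit 3 cells had a sum of 2 and 2 cells a sum of 3.

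In the 1972 Epi-CE cells within the limits, detection of the 3 genes was set beside the numbers that their separate detection rates would give. Cells with all 3 numbered 552, beside 529.6 from the separate rates. Cells with T and Sox2 but without Nkx1-2 numbered 54, beside 107 from the separate rates, and cells with none of the 3 numbered 43 beside 26.3. No test was run on these numbers, and deeper cells detect more of every gene. Cdx2, the caudal homeobox gene that lies upstream of posterior Hox genes, was at 220.3 CPM in cells with all 3 genes. It was at 39.0 CPM in those with T and Sox2 alone, 102 CPM in those with Sox2 and Nkx1-2 alone and 13.9 CPM in those with Sox2 alone. Among the 8 combinations of detected genes, the Cdx2 level was highest where all 3 were detected, as were those of Cdx1, Fgf8 and Wnt8a. This did not hold for the homeobox gene Gbx2, at 84.5 CPM there and 129 CPM in the 95 cells with Sox2 and Nkx1-2 alone. The keratins Krt8 and Krt19 were at 225 and 226 CPM with all 3 genes, and at 35.9 and 42.8 CPM in those 95 cells.

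The rule held for 15.8% (14.6 to 17.2) of ES-NMP cells, 2.70% (2.05 to 3.49) of Epi-CE-T cells and 20.0% (17.7 to 22.5) of Epi-NMP cells, which are 493, 57 and 222 cells. These are shares of barcodes marked TRUE, and in Epi-NMP only 1111 of 2624 barcodes were so marked. The other 1513 were marked FALSE, and 42 of them met the rule. FALSE barcodes numbered 80 in Epi-CE, 172 in ES-NMP and 92 in Epi-CE-T. When every cell was thinned at random to 8000 UMIs the shares were 9.77% in Epi-CE, 3.72% in ES-NMP, 0.237% in Epi-CE-T and 6.57% in Epi-NMP. Epi-CE had the highest share of the 4 libraries both ways, but its unthinned interval met that of Epi-NMP. No cell was too shallow to be thinned.

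**Figure D1:**
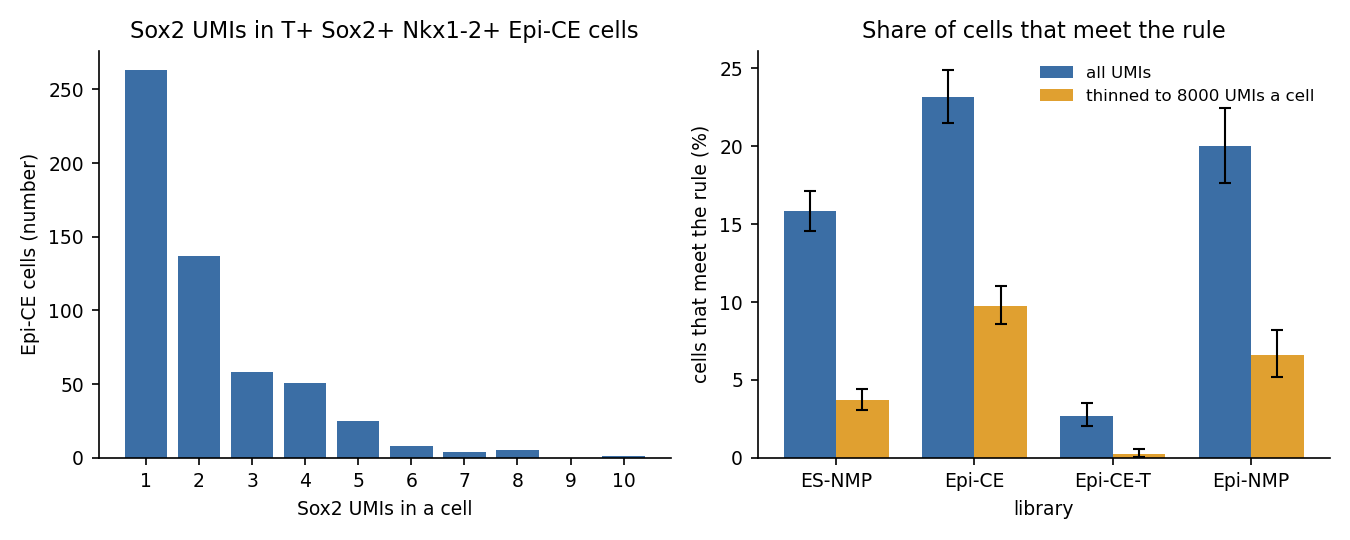
Left, number of T/Sox2/Nkx1-2 Epi-CE cells (y axis) by Sox2 UMIs in the cell (x axis). Right, share of TRUE barcodes that meet the rule in each library, with all UMIs and after thinning to 8000 UMIs a cell, with exact 95% binomial intervals as error bars. Cells with 1 Sox2 UMI make up 263 of the 552, and Epi-CE has the highest share with all UMIs (23.1%) and after thinning (9.77%).

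Epi-CE cells with Sox2 beside T and Nkx1-2 carried more transcript of Cdx2, Cdx1, Fgf8, Wnt8a and Gbx2 and of most genes of a G2 and mitosis list than cells with T and Nkx1-2 alone. WNT ligands as a whole did not share this, since 1 of 4 tested was higher and 2 were lower. Of 9 tested WNT target and feedback genes, 2 (Cdx1 and Sfrp1) were higher, none was lower, and the median log2 ratio was -0.06. The T/Sox2/Nkx1-2 cells carried less of 3 keratins, 3 claudins, 5 of 8 contractile genes and the streak genes Mixl1 and Nodal. Pou5f1 (Oct4), the core pluripotency factor, had a ratio whose interval included 1. Genes were compared where both groups together held 500 UMIs or more, which left 6287. Of these, 136 (2.16%) were at least 25% higher in T/Sox2/Nkx1-2 cells and 130 (2.07%) at least 20% lower, the same fold in either direction, and the median log2 ratio of all 6287 was 0.01. The 11 genes of the rule are not among the 6287. Values in brackets after a ratio are its exact conditional-binomial 95% interval.

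**Figure D2:**
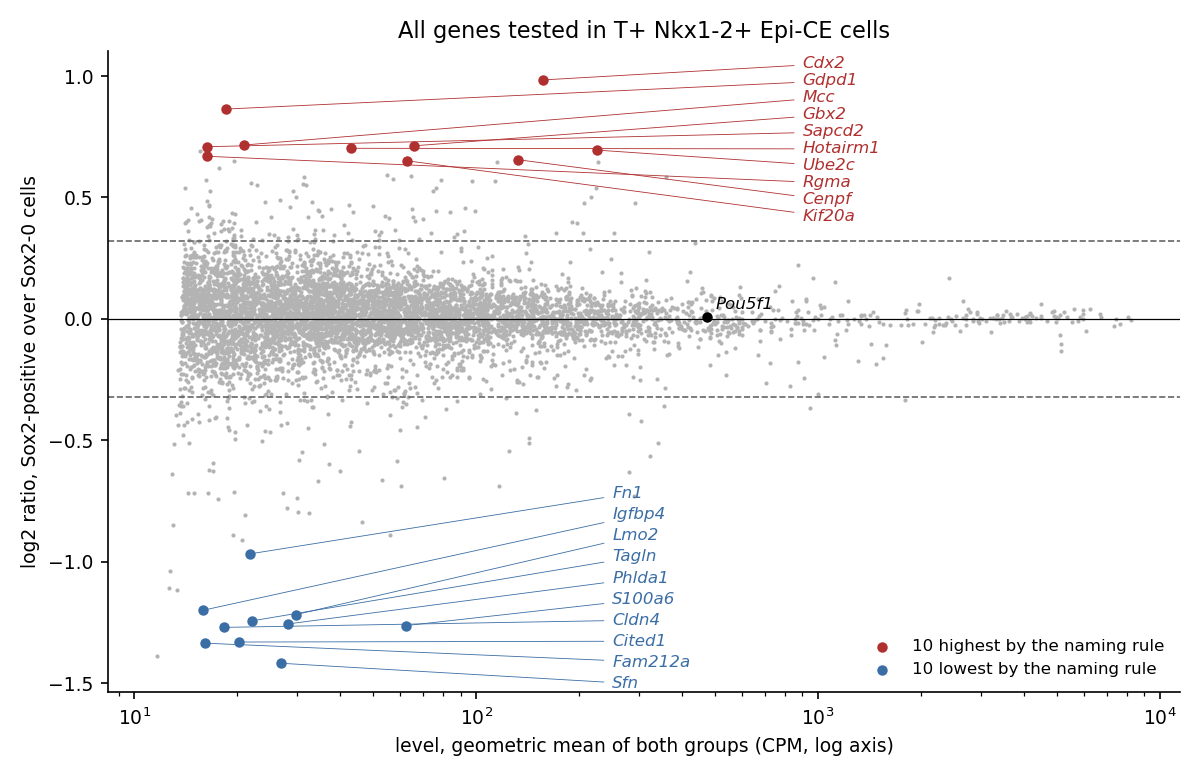
Each point is 1 of 6287 genes, with its level in CPM on a log x axis and the log2 ratio of T/Sox2/Nkx1-2 cells over Sox2-0 cells on the y axis. Dashed lines mark 25% higher and 20% lower, and colours mark the 10 highest and 10 lowest genes at 20 CPM or more. Cdx2 stands highest at a log2 ratio of 0.98, Sfn lowest of the named genes at -1.42, and Pou5f1 at 0.01.

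Of the 24 genes of the caudal epiblast and NMP list, 9 outside the rule had enough counts. Of these, 4 were higher, none was lower, and the list's median log2 ratio was 0.31. The 4 were Cdx2, Fgf8, Cdx1 and Wnt8a. Cdx2 lies on the minus strand of GRCm38 chromosome 5 from 147300805 to 147307270. It was at 220.3 CPM against 111 CPM, 1.98-fold higher (1.88 to 2.09). A cell held a median of 4 Cdx2 UMIs, up to 36, against a median of 1 and up to 28. Cdx2 was detected in 76.3% (72.5 to 79.8) of T/Sox2/Nkx1-2 cells and 58.6% (55.3 to 61.8) of Sox2-0 cells, and in 61.2% and 41.7% of the same cells after thinning. Both the level and the share of cells were thus higher, and the intervals of the groups did not meet.

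Fgf8, the FGF ligand of the streak and caudal epiblast, was at 144 against 92.2 CPM, 1.57-fold higher (1.47 to 1.66), and was detected in 63.6% against 50.3% of cells. Cdx1, a WNT-responsive relative of Cdx2, was at 67.5 against 44.7 CPM, 1.51-fold higher (1.38 to 1.65). Wnt8a, a WNT ligand of the early streak, was at 69.7 against 46.7 CPM, 1.49-fold higher (1.37 to 1.63). The list was not uniform, and Wnt6, a WNT ligand outside it, was at 64.0 against 101 CPM, 1.58-fold lower (1.46 to 1.7). Sp5, a direct target of WNT signalling, was at 191 against 224 CPM, a ratio of 0.852 (0.813 to 0.893), and Wnt5b stood at a ratio of 1.06 (0.945 to 1.19). Wnt3a, with too few UMIs for the count, was at 16.4 against 10.95 CPM, a ratio of 1.5 (1.248 to 1.8).

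Several NMP genes were close to the limit of detection in these cells. Cdx4 had no UMI in either group, which allows up to 0.208 CPM in T/Sox2/Nkx1-2 cells (3 counts over the group). Hes3, a Notch-family repressor used to mark NMPs, had 12 UMIs (0.831 CPM), and Fgf17, an FGF ligand of the tail bud, was at 3.53 CPM. Cyp26a1, which breaks down retinoic acid at the caudal end, was at 2.56 against 4.91 CPM. Sox1, the earliest marker of neural commitment, had 7 UMIs and Sox3 had 30, so neither of these relatives of Sox2 accompanied it at a level that could be compared between groups.

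Among Hox genes, Hoxb1, a gene of the 3′ end of its cluster, was at 20.0 against 25.2 CPM, 1.26-fold lower (1.09 to 1.46), a direction that turned after thinning (ratio 1.09). The 15 genes of Hox groups 5 to 9 summed to 15.3 CPM against 10.1 CPM, and none had enough counts to be compared singly. Hox groups 10 to 13 summed to 0.277 CPM.

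Gbx2, a homeobox gene of the posterior epiblast and hindbrain, was at 84.5 against 51.5 CPM, 1.64-fold higher (1.51 to 1.78), and was detected in 69.4% against 45.6% of cells. Among genes at 20 CPM or more in the higher group, it was one of the 10 with the highest ratio, together with Cdx2, Gdpd1, Mcc, Sapcd2, Hotairm1, Ube2c, Rgma, Cenpf and Kif20a. Gdpd1, a phosphodiesterase of lysophospholipids, was 1.82-fold higher (1.56 to 2.13) at 24.9 against 13.7 CPM. Rgma, a BMP co-receptor known from axon guidance, was 1.59-fold higher (1.35 to 1.88) at 20.5 against 12.9 CPM. Of the 4 genes tested in the anterior neural and epiblast list, Sfrp1, a secreted WNT inhibitor, was 1.40-fold higher (1.22 to 1.60) and Zic2, a zinc-finger factor of epiblast and neural plate, 1.3-fold higher (1.11 to 1.51). Of the 4 tested genes of the neural plate and spinal cord list, 1 was higher and 1 (Hoxb1) lower, with a median log2 ratio of -0.07. The higher one was Ncam1, a neural adhesion molecule, 1.40-fold higher (1.19 to 1.65), at 19.3 against 13.7 CPM. Cdh2 of the same list had a ratio of 0.838 (0.746 to 0.941).

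Of 14 tested genes of the core and primed list, 1, Zic2, was at least 25% higher, none was lower, and the median log2 ratio was 0.10. Pou5f1 was at 474 against 472 CPM, a ratio of 1.01 (0.975 to 1.04), and was detected in 98.6% and 98.9% of cells. Nanog was at 16.9 against 15.0 CPM, a ratio of 1.13 (0.951 to 1.33). Utf1, a chromatin factor of pluripotent cells, was at 49.4 against 59.2 CPM, a ratio of 0.834 (0.760 to 0.914). Otx2, an anterior epiblast factor, was at 3.05 against 3.29 CPM. Cdx2 and Pou5f1 were detected together in 415 of 552 T/Sox2/Nkx1-2 cells (75.2%) and in 58.1% of Sox2-0 cells, or in 56.5% and 39.8% of the same cells after thinning. These are shares of cells with at least 1 UMI of each gene, with no background share measured for either and no doublets called. Because Pou5f1 was detected in nearly all cells, the unthinned shares lie close to those of Cdx2 alone, 76.3% and 58.6%.

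Genes of G2 and mitosis were higher. All 20 of the list were tested, 15 were at least 25% higher, none was lower, and the median log2 ratio was 0.45. Their summed level was 3072 CPM against 2223 CPM, 1.38-fold higher (1.36 to 1.40). Ube2c, the E2 enzyme of the anaphase-promoting complex, was at 288 against 178 CPM, 1.62-fold higher (1.55 to 1.69) and 1.04- to 1.82-fold over the alternatives. Cenpf, a kinetochore protein, was at 166.5 against 106 CPM, 1.57-fold higher (1.49 to 1.67) and 1.02- to 1.84-fold over the alternatives. Those alternatives include weightings to the summed G2 and M level, which holds both genes and brings their ratios towards 1 by construction. Ccnb1, the cyclin that drives entry into mitosis, was at 285 against 182 CPM, 1.57-fold higher (1.5 to 1.64). Of the T/Sox2/Nkx1-2 cells, 32.2% (28.4 to 36.3) lay above the upper quartile of Epi-CE cells for this list, compared with 19.3% (16.8 to 22.04) of Sox2-0 cells. None of the 20 genes of the S phase list passed this fold in either direction, and its median log2 ratio was -0.07.

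Promoters of these G2 and M genes are shown because most of the list was higher together and its genes are known to share 2 short elements, the CCAAT box and the cell cycle homology region. Sequences of 4 of them come from the RefSeq promoter table on GRCm38.p6 and cover the 150 bases before the start of the gene, written 5′ to 3′ on the gene's strand, with capitals on each CCAAT or TTTGAA of either strand (ATTGG or TTCAAA). The windows are Ube2c at chr2:164769779-164769928 (plus strand), Ccnb1 at chr13:100786487-100786636 (minus), Cdc20 at chr4:118437344-118437493 (minus) and Cdk1 at chr10:69352913-69353062 (minus). Each holds 2 CCAAT boxes. Ube2c and Cdc20 hold 1 TTTGAA, Cdk1 holds 2, and Ccnb1 holds none in this window.
Ube2c: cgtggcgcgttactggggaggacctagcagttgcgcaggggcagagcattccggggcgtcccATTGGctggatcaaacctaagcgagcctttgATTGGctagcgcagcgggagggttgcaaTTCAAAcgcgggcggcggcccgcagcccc
Ccnb1: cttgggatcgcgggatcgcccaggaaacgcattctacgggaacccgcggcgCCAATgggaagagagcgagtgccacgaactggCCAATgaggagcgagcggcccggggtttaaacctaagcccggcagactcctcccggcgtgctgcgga
Cdc20: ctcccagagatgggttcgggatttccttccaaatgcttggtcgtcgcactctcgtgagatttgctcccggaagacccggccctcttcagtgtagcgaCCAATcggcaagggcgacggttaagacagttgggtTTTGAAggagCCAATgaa
Cdk1: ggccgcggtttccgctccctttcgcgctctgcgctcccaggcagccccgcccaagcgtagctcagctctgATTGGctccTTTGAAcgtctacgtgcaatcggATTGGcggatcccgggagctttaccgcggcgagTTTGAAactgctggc
In the table's full windows, from 250 bases before to 50 after the start, 16 of the 20 genes were found. CCAAT occurred in 15 of the 16 (93.8%) and TTTGAA in 12 (75%), and both occurred in 12. Among 4872 promoters of the other genes tested, 40.2% held CCAAT, 11.9% held TTTGAA and 5.01% held both, and among all 27025 promoters of the table the shares were 37.9%, 18.1% and 7.12%. Both strands were searched, and a stretch such as CCAATTGG holds CCAAT on both. Of 16 promoters of the S phase list, 9 held CCAAT, 2 held TTTGAA and 1 held both. These are matches of letters and not measured binding.

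The G2 and M difference came with a difference in depth, since T/Sox2/Nkx1-2 cells had more UMIs. Sox2-0 cells were therefore weighted to match the others, first in depth and then in the summed G2 and M level. With depth matched, Ube2c was 1.40-fold higher and the list's median log2 ratio was 0.36. With the G2 and M level matched, the genes at least 25% higher numbered 73, of which 61 were among the 136. Cdx2 then stood at 2.00, Fgf8 at 1.63, Gbx2 at 1.56, Cdx1 at 1.54 and Wnt8a at 1.49, while Ube2c and Cenpf, by construction, stood at 1.06 and 1.045. This weighting was chosen after seeing the data. Over all alternatives run, the Cdx2 ratio lay between 1.73 and 2.38.

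Cells were also divided by their Sox2 UMIs. Cdx2 was at 111 CPM in cells with 0 Sox2 UMIs, 168 with 1, 213 with 2, 269 with 3 and 334 with 4 or more. The G2 and M list stood at 2223, 2798, 3021, 3380 and 3652 CPM in the same order. Pou5f1 was at 472, 499, 469.9, 459.6 and 428 CPM. Median depth also differed, from 22388 UMIs in cells without Sox2 to 26704 in those with 4 or more, and its part in these values was not tested beyond the weighting above. After thinning to 8000 UMIs, with cells grouped anew by their thinned counts, the Cdx2 level was 163 CPM with 0, 260.0 with 1 and 334 with 2 or more Sox2 UMIs.

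**Figure D3:**
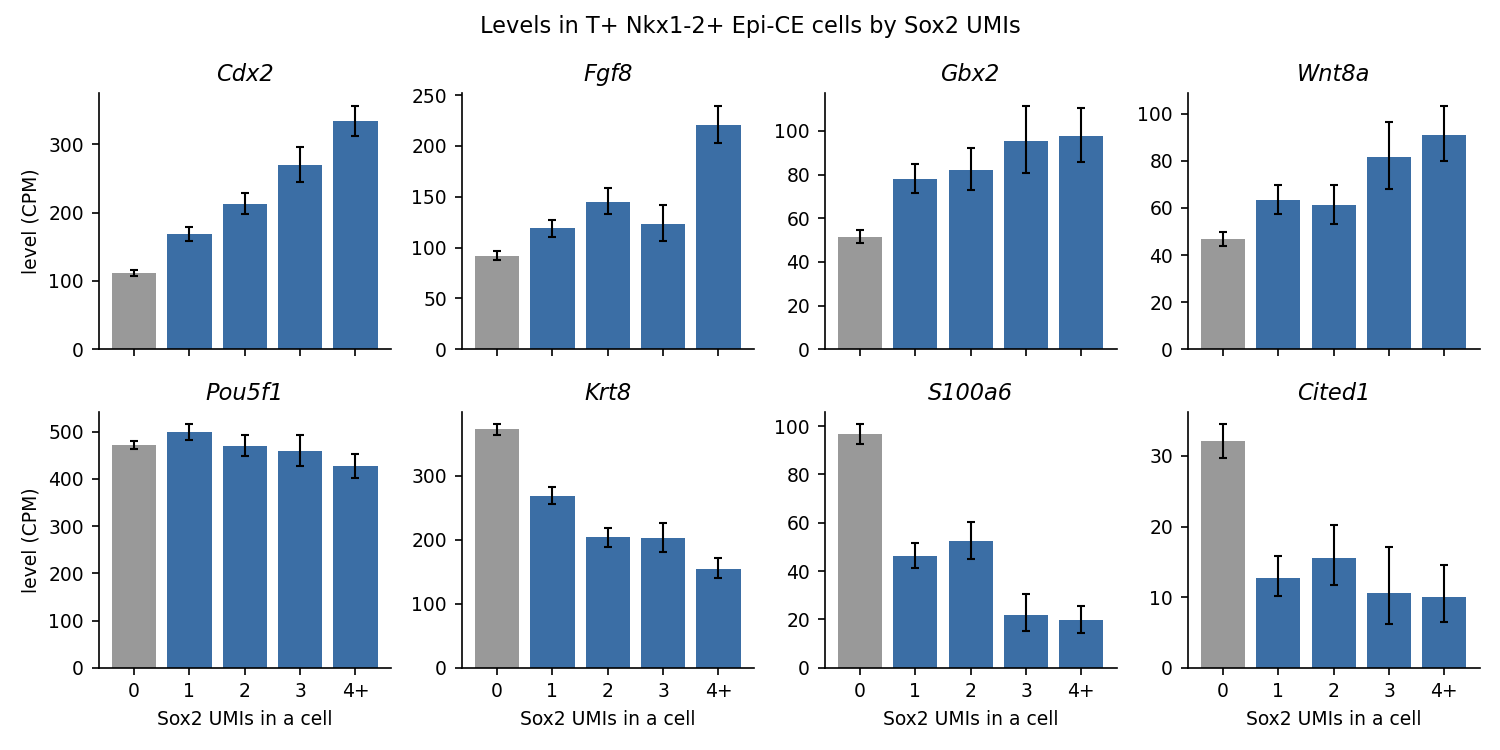
Level in CPM (y axis, from 0, scaled for each gene) of 8 genes in T and Nkx1-2 Epi-CE cells with 0, 1, 2, 3 or at least 4 Sox2 UMIs (x axis). Grey bars are the 911 Sox2-0 cells, blue bars the T/Sox2/Nkx1-2 cells, and error bars exact 95% Poisson intervals. Cdx2 goes from 111 to 334 CPM and Krt8 from 372 to 155 CPM.

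Epi-CE cells were also split into 4 equal bins by UMIs per cell. From the shallowest bin to the deepest, Cdx2 was 1.63-, 2.11-, 1.99- and 2.46-fold higher. Gbx2 was 1.94-, 1.64-, 1.46- and 1.69-fold higher. Ccnb1 was less even, with ratios of 1.53, 1.02 (0.875 to 1.18), 1.60 and 1.40, so its interval included 1 in the bin next to the shallowest. S100a6, a calcium-binding protein (GRCm38 chromosome 3, 90612882 to 90624181, plus strand), had ratios of 0.923 (0.629 to 1.34), 0.688, 0.4001 (0.316 to 0.502) and 0.300 (0.266 to 0.338). Mixl1 had ratios of 1.048, 0.465, 0.286 and 0.286. The intervals of Cdx1 (ratio 1.10, 0.874 to 1.38), Cited1 (1.15, 0.622 to 2.09), Nodal (0.910, 0.545 to 1.49), Tagln (0.522, 0.25 to 1.01), Mixl1 and S100a6 included 1 in the shallowest bin, which held 113 T/Sox2/Nkx1-2 and 204 Sox2-0 cells.

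Genes of simple epithelia were lower. Of 10 tested genes of the epithelial list, 6 were at least 20% lower, none was higher, and the median log2 ratio was -0.57. Krt8, a keratin of simple epithelium, was at 225 against 372 CPM, 1.66-fold lower (1.59 to 1.72), and Krt19 was at 226 against 349 CPM, 1.55-fold lower (1.49 to 1.61). Cldn4, a tight-junction claudin, was at 11.8 against 28.4 CPM, 2.41-fold lower (2.03 to 2.87). Epcam and Cdh1 (E-cadherin), the adhesion molecules that hold epiblast together, were not among the 6. Krt8 and Krt18 have many processed copies in the genome, so their counts depend on how reads with several matches were treated.

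These lower genes were unevenly spread over cells. Krt8 was detected in 71.7% of T/Sox2/Nkx1-2 cells and 73.7% of Sox2-0 cells, and the median was 2 UMIs in both, but 81 of 552 (14.7%, 11.8 to 17.9) against 205 of 911 (22.5%, 19.8 to 25.4) held 10 or more. For S100a6, at 40.3 against 96.6 CPM, 11 cells (1.99%) against 40 (4.39%) held 10 or more UMIs, and the 5% of cells with most S100a6 held 58.3% and 72.4% of all its UMIs. For Krt8 the upper 5% of cells held 47.9% and 46.2%, for Krt19 59.4% and 53.8%, for Tagln 72.5% and 65.2% and for Cdx2 19.4% and 28.8%. The upper cells thus held a larger share in Sox2-0 cells for S100a6 and Cdx2 but not for Krt8, Krt19 or Tagln. Tagln and Nodal also differed in the share of cells with a UMI, 14.3% against 23.6% for Tagln and 18.8% against 29.3% for Nodal.

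Among genes at 20 CPM or more in the higher group, the 10 lowest were Sfn, Fam212a, Cited1, Cldn4, S100a6, Phlda1, Tagln, Lmo2, Igfbp4 and Fn1. Sfn (14-3-3 sigma), an epithelial cell cycle inhibitor, was at 16.4 against 43.9 CPM, 2.67-fold lower (2.32 to 3.09), and between 2.02- and 5.31-fold lower over the alternatives. Cited1, a transcriptional co-factor, was at 12.7 against 32.1 CPM, 2.51-fold lower (2.13 to 2.97). Lmo2, a co-factor of blood and endothelial progenitors, was at 19.5 against 45.3 CPM, 2.32-fold lower (2.03 to 2.66). Fn1 (fibronectin), the matrix protein also used to coat the flasks, was at 15.6 against 30.5 CPM, 1.95-fold lower (1.68 to 2.28). Over the alternatives S100a6 was 1.48- to 2.85-fold lower, Phlda1 1.45- to 3.604-fold, Igfbp4 1.39- to 2.92-fold and Cldn4 1.93- to 4.83-fold, the smallest for S100a6, Phlda1 and Igfbp4 after thinning.

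Contractile genes were lower as well. Of 8 tested genes of the smooth muscle list, 5 were at least 20% lower, none was higher, and the median log2 ratio was -0.35. Tagln, an actin-binding protein of smooth muscle, was at 14.3 against 33.9 CPM, 2.37-fold lower (2.03 to 2.77), and Myl9, a myosin light chain, was at 23.3 against 30.5 CPM, 1.31-fold lower (1.14 to 1.49). The 4 markers of contractile smooth muscle summed to 55.2 CPM against 85.0 CPM. Of the mesenchymal transition list, 3 of 7 tested were lower (Fn1, Tgfb1 and Sparc), 1 was higher (Zeb2, at 1.28-fold, 1.1 to 1.5), and the median log2 ratio was -0.31.

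Streak genes were divided. Of 8 tested genes of the primitive streak list, 3 were lower, 1 (Fgf8) was higher, and the median log2 ratio was -0.15. Mixl1, a homeobox gene of streak cells that form mesoderm and endoderm, was at 7.21 against 18.8 CPM, 2.62-fold lower (2.10 to 3.27), and 1.57- to 2.67-fold lower over the alternatives. Nodal, the ligand that patterns the streak, was at 15.3 against 25.1 CPM, 1.64-fold lower (1.40 to 1.92). Wnt3, which initiates the streak, was 1.41-fold lower (1.21 to 1.65). Eomes, a T-box factor of the early streak, was at 2.29 against 1.49 CPM, a ratio of 1.54 (0.919 to 2.57) from 33 UMIs in each group. Lefty1, an inhibitor and target of Nodal signalling, was higher where Nodal was lower, at 89.3 against 65.5 CPM, 1.36-fold (1.26 to 1.47) and up to 2.12-fold after thinning.

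**Figure D4:**
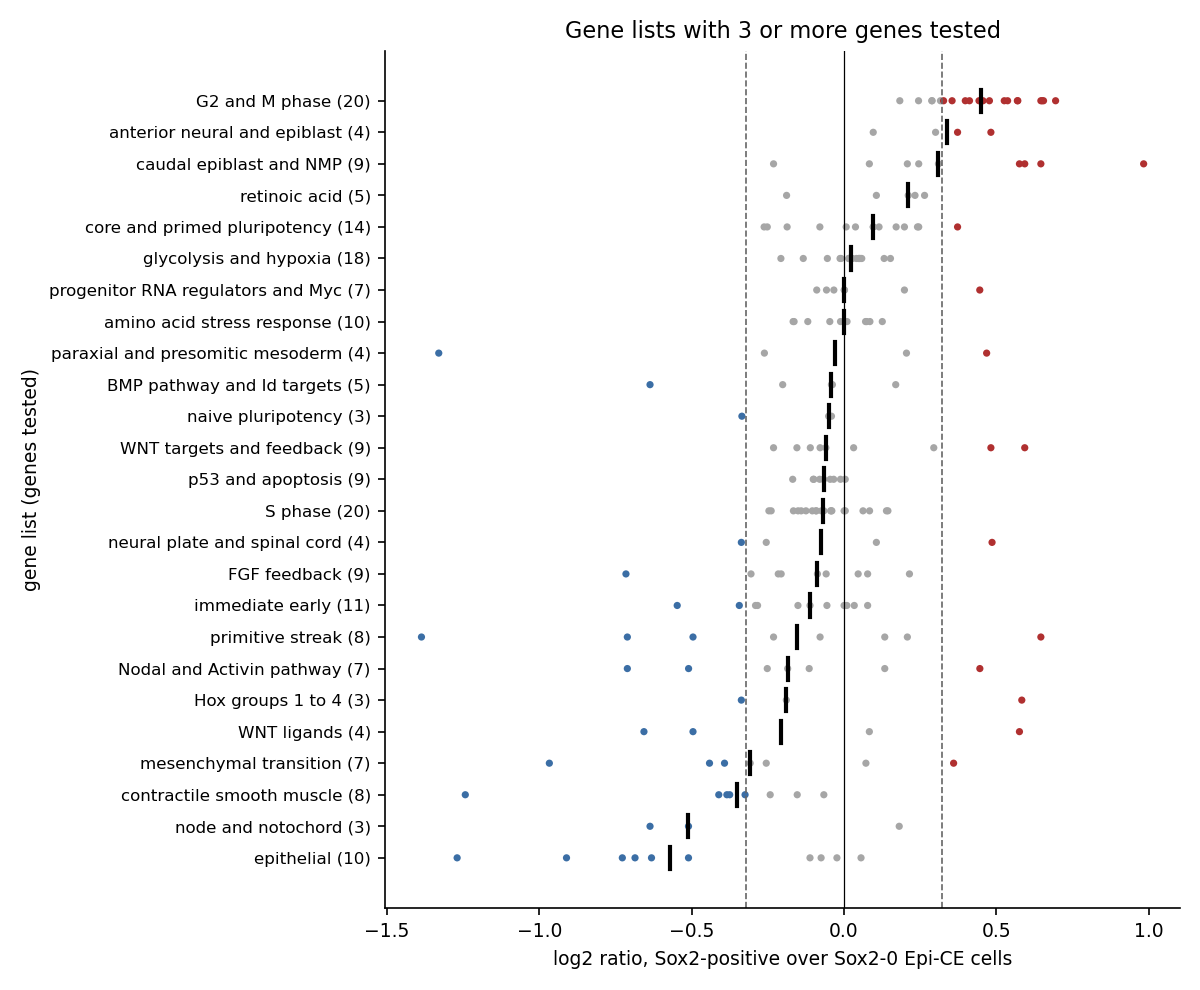
Log2 ratio of T/Sox2/Nkx1-2 over Sox2-0 cells (x axis) for each tested gene of the lists with 3 or more tested genes (y axis, number tested in brackets). Red points are at least 25% higher, blue points at least 20% lower, and black bars mark list medians. The G2 and M phase list lies highest with a median of 0.45, and the epithelial list lowest with -0.57.

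The 7 caudal epiblast or NMP markers outside the rule summed to 713 CPM against 534 CPM in Sox2-0 cells, and 5 of them exceeded 20 CPM. The 5 node markers, all limited by the rule, summed to 29.2 CPM, and the 5 paraxial mesoderm markers, of which Tbx6, Msgn1 and Aldh1a2 were limited by it, to 9.77 CPM. The 2 paraxial markers outside the rule, Dll1 and Meox1, summed to 7.69 CPM, the 5 definitive endoderm markers to 8.04 and the 5 neural markers to 4.85, with none of these above 20 CPM singly. The 5 lateral mesoderm markers summed to 0.693 CPM, with Hand2, Gata5 and Kdr at 0. The 5 streak markers summed to 16.01 CPM against 31.6 CPM in Sox2-0 cells, and the 6 primed epiblast markers to 610.0 against 614 CPM. Of these 6 primed markers, 3 exceeded 20 CPM. Pou5f1 alone was at 474 CPM of the sum, while Fgf5 (17.1 CPM), Nanog (16.9 CPM) and Otx2 (3.05 CPM) stayed below 20. Caudal epiblast markers that the rule did not use were thus present in these cells, and so was a part of the primed epiblast markers.

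The same contrast in the other libraries used cells that had no part in choosing the Epi-CE groups. ES-NMP had 493 cells with Sox2 and 736 without, and Epi-NMP 222 and 82, while Epi-CE-T had too few cells without Sox2 (38). In ES-NMP, Sox2-positive cells also carried more of the naive pluripotency genes Zfp42 (78.0 against 19.6 CPM), Klf2 (154 against 41.1 CPM), Tdh (159 against 52.7 CPM) and Dppa5a (740.5 against 319 CPM). Klf4, another naive gene, was not higher, at 15.7 against 16.7 CPM, a ratio of 0.941 (0.781 to 1.13). In the 601 ES-NMP cells with at least 10 UMIs of naive markers, Sox2 was detected in 95.7%, T in 17.1% and Nkx1-2 in 37.4%. The part of such cells in the ES-NMP contrast was not tested. In ES-NMP, 110 of 5589 genes were at least 25% higher (1.97%) and 59 lower (1.06%). In Epi-NMP, 158 of 1979 genes were higher (7.98%) and 95 lower (4.80%), where the 82 cells without Sox2 give wide counting intervals. Of the caudal list, 2 of 3 tested genes were higher in Epi-NMP and 1 of 14 in ES-NMP. Of the G2 and M list, 10 of 14 tested genes were higher in Epi-NMP (median log2 ratio 0.47) and 2 of 20 in ES-NMP (median 0.21), and none was lower in either.

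Cdx2 was 2.32-fold higher in Sox2-positive Epi-NMP cells (2.07 to 2.60) and 1.13-fold higher in those of ES-NMP (1.09 to 1.17), against 1.98-fold in Epi-CE. Fgf8 in Epi-NMP stood at a ratio of 1.66 (1.38 to 2.01) and had a ratio of 0.86 in ES-NMP. Gbx2 in Epi-NMP stood at a ratio of 1.72 (1.24 to 2.44), beside a ratio of 0.85 (0.77 to 0.95) in ES-NMP. Mixl1 had ratios of 0.54 in ES-NMP and 0.32 in Epi-NMP, below 1 in all 3 libraries, and Tagln had ratios of 0.40 and 0.13. Across genes tested in both libraries, log2 ratios correlated at Pearson r = 0.53 between Epi-CE and Epi-NMP (1970 genes) and 0.25 between Epi-CE and ES-NMP (5401 genes). These are correlations across genes of the same libraries, which are not independent replicates, and the difference in spread between libraries enters them.

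T/Sox2/Nkx1-2 cells of Epi-CE were last set against the cells of the same rule elsewhere, 1 library against 1. Against ES-NMP, 635 of 5419 genes were at least 1.5-fold higher (11.7%) and 637 lower (11.8%). Against Epi-CE-T, 187 of 4080 were higher (4.58%) and 211 lower (5.17%), a split that became 226 and 153 with TMM scaling. Against Epi-NMP, 634 of 4516 were higher (14.0%) and 517 lower (11.4%). By rule the cells share T, Sox2 and Nkx1-2, yet T was at 426 CPM in Epi-CE against 186 in ES-NMP, 116 in Epi-CE-T, the library sorted for the T reporter, and 214 in Epi-NMP. Sox2 was at 80.8 CPM in Epi-CE, 82.5 in ES-NMP, 86.4 in Epi-CE-T and 153 in Epi-NMP. These levels of T and Sox2 are description only, since the rule selects on both genes. Its node and mesoderm limits kept 1056 of 2109 Epi-CE-T cells and 1972 of 2386 Epi-CE cells, so the values do not describe the whole libraries.

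Pluripotency genes differed between the cells of the 4 libraries. Pou5f1 was at 474 CPM in Epi-CE, 486 in ES-NMP and 250.5 in Epi-CE-T, but at 11.7 in Epi-NMP, 40.7-fold lower than in Epi-CE. Fst, the activin antagonist follistatin, was at 804 CPM in Epi-CE against 449, 131 and 17.1 CPM in the same order. Utf1 was at 49.4 CPM in Epi-CE and had 1 UMI in Epi-NMP. Dppa5a, Tdh, Zfp42 and Trh were among the 5 genes lowest against ES-NMP, and Dppa5a, a gene of naive pluripotency, was at 2.49 CPM in Epi-CE and 740.5 in ES-NMP, 297-fold lower (214 to 424).

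Hoxb9 was at 0.970 CPM in Epi-CE, 82.7 in ES-NMP, 20.4 in Epi-CE-T and 237 in Epi-NMP, and Hoxb8 at 2.43, 66.7, 18.4 and 136 CPM. Cdx2 was at 220.3 CPM in Epi-CE, 384 in ES-NMP, 57.3 in Epi-CE-T and 512 in Epi-NMP. Wnt8a was at 69.7, 58.1, 61.3 and 3.22 CPM. Among the cells of the same rule, those of Epi-CE thus had the lowest Hoxb8 and Hoxb9 levels, with Cdx2 between the others.

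The 5 highest genes against ES-NMP were Anxa2, Clu, Gbp2, Gbp2b and Ndrg1. Clu (clusterin, a secreted chaperone) was 22.9-fold higher (18.7 to 28.3), Anxa2 (annexin A2, a membrane-binding protein) 26.8-fold higher (21.8 to 33.3), and Ndrg1, a hypoxia-responsive gene, 14.8-fold higher (10.3 to 21.8). Gbp2 and Gbp2b, neighbouring interferon-induced GTPase genes on chromosome 3, were 15.4- and 15.2-fold higher, but they are near copies of each other and their counts may be split between them. Against Epi-CE-T, Sycp3, a meiotic chromosome protein, was 16.5-fold higher (10.7 to 27.1) and Wnt6, a WNT ligand, 9.62-fold higher (5.60 to 18.1). Tmsb4x, an actin-sequestering peptide, was 3.94-fold lower (3.74 to 4.16) against Epi-CE-T. With 57 cells in Epi-CE-T, intervals of low genes are wide.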

How the data were processed

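Single-cell RNA of 4 cultures, 1 library each, was analysed from the authors' deposited count table, whose values are unnormalized whole UMIs (27998 genes, 10579 barcodes). The tools named in the submitters' processing notes are Cell Ranger 1.3.1 with Seurat 2.0, and the build is mm10. Strand use, annotation and what the TRUE mark stands for are not given in the sources used here. Members and gene lists were chosen with earlier results of these data known.

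Counts were summed over the cells of a group and divided by the group's total to give CPM. Ratios carry exact conditional-binomial, shares Clopper-Pearson and levels Poisson 95% intervals, for counting error only. Genes needed 500 UMIs over both groups and were counted when at least 25% higher or 20% lower within a library, or past 1.5-fold between libraries. Doublets were not called. After thinning, ratios and levels used groups drawn anew from the thinned counts, while shares of cells with a gene detected kept the original groups. The ratios and calls were tried on Poisson counts simulated at the totals of both Epi-CE groups, with known 1.5-fold changes. That simulation held no variation between cells, so it cannot show how the intervals behave for genes concentrated in few cells. Named genes were a fixed set of 24, the 10 highest and 10 lowest ratios among genes with 20 CPM or more, excluding ribosomal, mitochondrial, predicted and rule genes, the 5 highest and lowest against each other library, and up to 4 per list (32 lists). Alternatives were a minimum of 2 Sox2 UMIs, no limits, all barcodes, other UMI and fold minimums, thinning to 8000 UMIs, mean CPM per cell, totals without ribosomal and mitochondrial genes, TMM factors (edgeR 4.0.16), no cells above the 90th percentile of UMIs, and weighting of Sox2-0 cells to the depth of the others. Weighting to G2 and M level, to depth with G2 and M level, to T with Nkx1-2 level, and leaving out shared barcodes were added after seeing the data. Python 3.11.15, scipy 1.17.1 and GENCODE M21 coordinates on GRCm38 were used.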

Additional observations from a re-analysis of the deposited data

Results flagged for a closer look

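For 6 genes the ratio of Sox2-positive over Sox2-0 cells lay on one side of 1 in Epi-CE and on the other in ES-NMP. The difference between libraries was not tested, since each is 1 library. The Sox2-positive ES-NMP cells also carried more of some naive pluripotency genes, such as Zfp42 (ratio 3.98, 3.51 to 4.51), but not of Klf4 (0.941, 0.781 to 1.13). The part of naive genes in these ratios was not tested. S100a6 was at 1.676 in ES-NMP (1.34 to 2.09, from 184 and 150 UMIs) against 0.417 in Epi-CE, Krt19 at 1.907 (1.61 to 2.26) against 0.645, and Fn1 at 1.327 (1.16 to 1.52) against 0.512. Tmsb4x was at 1.272 against 0.677 and Klf5, a Krüppel-like factor of pluripotent and epithelial cells, at 1.378 against 0.793. Lefty1 was at 0.6688 (0.642 to 0.697) in ES-NMP against 1.36 in Epi-CE.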

How the results depend on the processing

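The share of Epi-CE cells that met the rule, 23.1%, became 12.1% with a minimum of 2 Sox2 UMIs, 27.3% without the limits and 9.77% after thinning to 8000 UMIs. The 136 higher and 130 lower genes became 64 and 57 after thinning (36 and 16 of them shared, with 2589 genes left to test), 310 and 310 with a minimum of 200 UMIs, 76 and 67 with 1000, 2435 and 2252 with no minimum, and 18 and 43 at 1.5-fold. Lower genes numbered 202 with at least 2 Sox2 UMIs. Higher genes numbered 73 after weighting to the G2 and M level and 69 after weighting to depth and G2 and M level. In the latter the G2 and M list's median log2 ratio was -0.00310, which follows by construction because the weighting used that list's summed level. Over all alternatives 30 of 139 named ratios lay on both sides of 1. Of these, 4 had enough counts to be tested and had been past the fold. They crossed after thinning: Nog 1.01, Dusp1 1.04, Hoxb1 1.09 and Ptn 0.934. Thinning leaves fewer counts and also changes the groups, because the rule was applied again to the thinned counts. It then held for 233 cells, and a cell that lost its Sox2 UMIs but kept T and Nkx1-2 counted as Sox2-0. The cause of each crossing was not tested. No other count over these groups moved by over 1.5 times. No paired analysis was possible because each group is 1 library.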

Other observations

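Metabolic and stress genes did not pass the fold used above (25% higher or 20% lower) between T/Sox2/Nkx1-2 and Sox2-0 cells of Epi-CE. None of the 18 tested genes of the glycolysis and hypoxia list, 9 of the p53 and apoptosis list or 10 of the amino acid stress list passed it, with median log2 ratios of 0.02, -0.07 and -0.00. Slc2a1, the main glucose transporter, was at 619.9 against 566 CPM, a ratio of 1.10 (1.07 to 1.13), and Cdkn1a (p21) was at 501 against 537 CPM. Of the 5 tested retinoic acid genes none passed it, and Rarg, a retinoic acid receptor, had a ratio of 1.20 (1.07 to 1.35). Of 9 tested FGF feedback genes, Dusp14 was lower, at 11.6 against 19.1 CPM, while Dusp6, a phosphatase induced by FGF, had a ratio of 0.809 (0.745 to 0.879) beside the higher Fgf8.

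Mycn, a growth regulator of embryonic progenitors, was the gene past it among 7 tested RNA regulator and Myc genes, at 40.5 against 29.8 CPM, 1.36-fold higher (1.22 to 1.52), with ratios above 1 in ES-NMP (1.6) and Epi-NMP (1.52) as well. Tcf15, a factor of paraxial mesoderm that is also expressed in primed epiblast, was 1.38-fold higher (1.17 to 1.63), whereas Cited1 of the same list was lower.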
